A study of Homo sapiens with 19 samples.

Results

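The arrays described here are 5 from vit C-treated THP-1 cells on 1 slide, 3 taken at 8 h and 2 at 24 h, out of 19 arrays in the series. They were chosen by their labels alone, and the comparison is 24 h against 8 h, so that it follows the cells over time under vit C. THP-1 is a human monocytic line, and PMA (phorbol myristate acetate) at 30 nM was used overnight to turn the cells into adherent macrophage-like cells, which then rested in fresh medium. Both time points are counted from the addition of 0.1 mM vit C, and the UT (untreated) groups, 2 arrays at 8 h and 3 at 24 h on another slide, had the same PMA treatment and no vit C. Replicates are separate flasks of the same line, and no array of cells before PMA or before vit C enters the comparison.

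PMA activates protein kinase C, which drives THP-1 cells out of division and into a state that resembles macrophages. Such cells secrete chemokines, cytokines and matrix-degrading proteases, many of them under the transcription factors NF-kappa-B and AP-1, and lose the granule proteins of early myeloid cells. Vit C enters through SVCT and GLUT transporters and serves as a cofactor of iron-dependent dioxygenases, among them collagen and histone-modifying enzymes.

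A level below is the log2 processed signal of a probe minus the 75th percentile of its array, and a log2 fold change is the mean at 24 h minus the mean at 8 h. The 75th percentile of signal was 443.6 to 459.2 at 8 h and 380.3 and 576.4 at 24 h. Over the 28799 probes well above background on all 5 arrays, 0.566% to 1.11% differed by at least 2-fold between any pair of 8 h arrays. Between the 24 h arrays 7.34% did, while replicate 1 at 24 h differed from replicate 3 at 8 h in 6.08%. Replicate 1 at 24 h thus lay closer to an 8 h array than to the other 24 h array, and counts without each of them are given beside the larger groups of called genes. All 8 macrophage markers were well above background on all 5 arrays. Among markers of T cells, B cells, red cells, epithelium and fibroblasts, CD3E, CD79A and KRT14 were well above background on all 5 arrays. CD3D, CD3G, CD79B, HBB, EPCAM, CDH1, KRT5, COL1A2 and COL3A1 were so on none. In such bulk RNA fewer cells of a type and less RNA per cell cannot be told apart.

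Of 18533 genes tested, 808 (4.36%) were higher at 24 h and 677 (3.65%) were lower, called where the change was 2-fold or more in either direction with an adjusted p (q) no larger than 0.05. The median log2 fold change of all genes tested was 0.01. At least 4-fold changes were called for 181 of the higher and 116 of the lower genes. For 584 of the higher and 533 of the lower genes the probe was well above background on all 5 arrays. The other 224 and 144 passed the filter through 1 time point, and 141 and 82 of the called genes were near background on every array of the dimmer group. For genes that passed through 1 time point the direction followed from the filter, also where they count in the lists below. Of the higher and lower genes 311 and 263 had more than 1 tested probe, and in 98 and 81 of these all were called, the value given being that of the called probe of largest change. The groups did not overlap in any called gene, nor in 45.6% of all genes tested. Without replicate 1 at 24 h 873 higher and 760 lower genes were called, and without replicate 2 at 24 h 589 and 498.

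**Figure D1:**
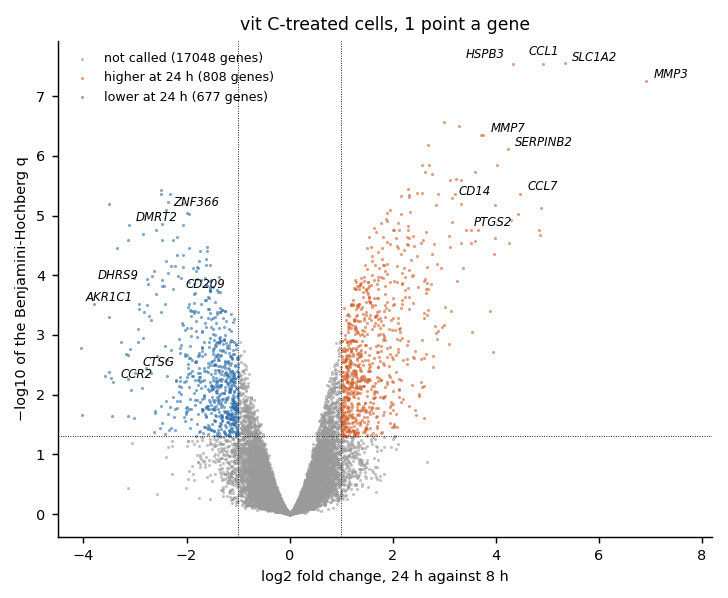
Each point is 1 of 18533 genes, with the log2 fold change of 24 h against 8 h in vit C-treated cells on the x axis and −log10 of the q on the y axis; dotted lines mark the thresholds. The 808 genes called higher reach further from 0 than the 677 called lower, with MMP3 the farthest to the right.

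Chemokines, a small heat shock protein, a secreted protease inhibitor and a matrix protease led the rises among genes measured on all 5 arrays. CCL1, which attracts monocytes and T helper cells, read 2.03, 1.88 and 1.97 at 8 h and 6.97 and 6.77 at 24 h, a log2 fold change of 4.9 ± 0.23 (SE; q = 2.85e-08). CCL7, a monocyte attractant, read −2.18, −2.2 and −2.38 and then 2.04 and 2.41, a log2 fold change of 4.48 ± 0.36 (q = 4.26e-06). In both genes the arrays of a time point lay close together and far from the other time point. SERPINB2, the plasminogen activator inhibitor of macrophages, read −2.45, −3.34 and −2.42 and then 1.29 and 1.71, 4.24 ± 0.27 on the log2 scale (q = 7.69e-07). MMP7, a metalloproteinase of matrix proteins, read 1.48, 1.2 and 1.25 and then 4.89 and 5.24, 3.76 ± 0.23 on the log2 scale (q = 4.47e-07). HSPB3, a small heat shock protein better known from muscle, read 0.17, 0.31 and 0.21 and then 4.41 and 4.71, and its log2 fold change was 4.33 ± 0.2.

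The rest of the 12 largest rises were of receptors, enzymes, channel subunits and a chaperone. IL1R2, the decoy receptor that binds IL-1 without signalling, rose by 3.59 ± 0.26 on the log2 scale, from −1.91, −1.83 and −2.14 to 1.64 on both 24 h arrays. PTGS2, the inducible cyclooxygenase, read −3.09, −3.06 and −3.76 at 8 h and −0.41 and 0.66 at 24 h, which gave 3.43 ± 0.33. The 24 h arrays of PTGS2 stood apart from each other by more than the 8 h arrays did, and neither overlapped them. CHIT1, the chitinase of lipid-laden macrophages, rose by 3.2 ± 0.26, and GFPT2, which feeds the hexosamine pathway, by 3.16 ± 0.29. SCG5, a chaperone of secretory granules, rose by 3.72 ± 0.23, the calcium channel subunit CACNA2D3 by 3.29 ± 0.19 and the connexin GJB2 by 3.22 ± 0.24.

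**Figure D2:**
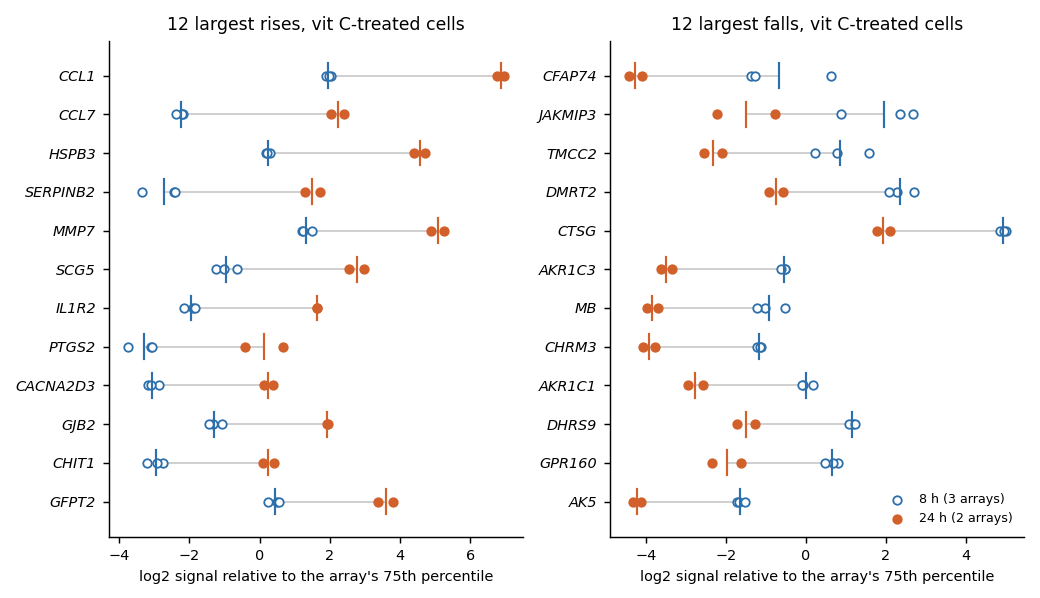
Levels on each array of the 12 largest rises (left) and 12 largest falls (right) among called genes measured on all 5 arrays; open circles are the 3 arrays at 8 h, filled circles the 2 at 24 h, and vertical bars the group means, on the log2 scale relative to the array's 75th percentile. The time points do not overlap in any of the genes, and by SD the arrays within a time point scatter most in CFAP74 and JAKMIP3.

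Some genes were near background on all 8 h arrays, and their fold is a lower bound, set against the dimmest signal that the scanner software called well above background on each 8 h array. MMP3, a protease that activates other metalloproteinases, read −6.28, −7.17 and −6.8 at 8 h and −0.05 and 0.38 at 24 h and was at least 35.2-fold higher (q = 5.61e-08). SLC1A2, a glutamate transporter best known from astrocytes, read −5.99, −6.34 and −6.04 and then −0.87 and −0.71, at least 18.2-fold higher (q = 2.8e-08). IL33, a cytokine of the IL-1 family, was at least 9.13-fold higher, and DAZL, an RNA-binding protein of germ cells, at least 7.89-fold. SERPIND1, an inhibitor of thrombin, was at least 7.87-fold higher and MMP8, the neutrophil collagenase, at least 7.69-fold. These 6 passed the filter through the 24 h arrays alone, so that the order of the time points was fixed by their choice.

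Many chemokine ligands rose. Of 40 on the list, 30 were tested, 15 were called higher and 1 lower, with a median log2 fold change of 1.31 against 0.01 for all genes tested. After CCL1 and CCL7, the next chemokine whose rise is not given as a bound was CXCL3, a neutrophil attractant. CXCL3 read 1.74, 1.96 and 1.36 and then 4.54 and 4.72, 2.94 ± 0.34 on the log2 scale. PPBP was near background at 8 h and at least 2.67-fold higher at 24 h, and passed the filter through the 24 h arrays alone. CCL2, the main attractant of monocytes, read 4.88, 4.75 and 4.65 at 8 h and 7.38 and 7.67 at 24 h, 2.77 on the log2 scale (q = 2.02e-06). The CC ligands (8 higher and 1 lower of 16) and the CXC, CX3C and XC ligands (7 higher of 14) both contributed. The member called lower was CCL28, a mucosal chemokine, at −1.54 ± 0.29. The median was 1.34 on replicate 1 and 1.32 on replicate 2 at 24 h, each against the 8 h mean, and the count without each was 17 and 16 higher.

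Cytokines followed, with 18 of 36 tested called higher and 1 lower, and a median of 1.16. Without replicate 1 and 2 at 24 h in turn 17 and 14 were higher. CSF3, the growth factor of granulocytes, read −7.12, −6.91 and −7.2 at 8 h and −2.33 and −2.12 at 24 h and was at least 6.71-fold higher. IL11, of the IL-6 family, read −3.6, −4.31 and −3.99 and then −1.15 and −1.29, 2.74 ± 0.34 on the log2 scale (q = 0.000139), and the EGF receptor ligand EREG rose by 2.76 ± 0.3. IL6 itself was near background at 8 h, at −5.75, −6.84 and −6.07, and read −3.67 and −3.4 at 24 h. IL6 was at least 2.71-fold higher, and like CSF3 it passed the filter through the 24 h arrays alone. The IL-6 family with its SOCS feedback inhibitors gave 5 higher of 9 tested, while the IL-1 family gave 2 of 7. IL1B, the inflammatory IL-1, stood at 8.29, 8.27 and 8.41 and then at 8.6 and 8.02, a log2 fold change of −0.01 (q = 0.98). PDGFA, a growth factor for mesenchymal cells, was the cytokine called lower, at −1.13 ± 0.19 by 1 of its 5 tested probes.

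The NF-kappa-B feedback and TNF list showed 7 of 32 called higher and 0 lower, with a median of 0.34. TNFAIP6, a TNF-induced hyaluronan-binding protein, read 0.73, 0.77 and 0.54 and then 2.61 and 3.07, 2.16 ± 0.3 on the log2 scale (q = 0.000354). BIRC3 and BCL2A1, which protect cells from apoptosis, rose by 1.64 ± 0.3 and 1.42 ± 0.21, BCL2A1 through 1 of 2 tested probes. TNF rose by 1.4 ± 0.23 (q = 0.00126), from 3.98, 3.95 and 4.12 to 5.33 and 5.49, through 1 of 2 tested probes. Of the NF-kappa-B subunits and their inhibitors 1 of 13 was called (7.69%, beside 8.01% of all genes). Immediate early genes gave 5 of 37 higher and 3 lower, beside 4.36% and 3.65% of all genes. CCN1, a matricellular protein that AP-1 and YAP induce and that was well above background on 2 of the 3 arrays at 8 h, rose by 3.33 ± 0.28, CCN2 was at least 2.2-fold higher, and the phosphatase DUSP1 rose by 1.52 ± 0.31 and FOSB by 1.31 ± 0.28. KLF4 fell by 1.81 and ATF3 by 1.15 on the log2 scale, and EGR3 was at least 1.45-fold lower. ATF3 was called by 1 of 2 tested probes, with the other at −0.31, and EGR3 by 1 of 3. FOS read 4.35, 4.01 and 3.3 and then 3.5 and 4.69, so that its time points overlapped (0.21 on the log2 scale, q = 0.814). Without replicate 2 at 24 h neither DUSP1 (q = 0.103) nor FOSB (q = 0.133) was called, and 3 of the list were higher. Without replicate 1 at 8 h 1 of the list was lower. EGR3 lost its call when any 8 h array or replicate 1 at 24 h was left out, and ATF3 was not without replicate 1 at 8 h (q = 0.0564) nor without replicate 2 at 24 h (q = 0.187).

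Proteases and their inhibitors gave 13 of 35 called higher and 1 lower, with a median of 0.8, and 13 and 11 were higher without replicate 1 and 2 at 24 h in turn. Of the metalloproteinases and their TIMP inhibitors 7 of 21 rose, and of the plasminogen and coagulation genes 6 of 14, against 1 that fell. PROC, the anticoagulant protein C, was that gene, at least 2.77-fold lower at 24 h. MMP9, the gelatinase that PMA-treated THP-1 cells secrete in quantity, was already bright at 8 h, at 8.42, 8.42 and 8.71, and read 9.64 and 9.08 at 24 h. Its log2 fold change of 0.84 (q = 0.0302) was under the minimum for a call. Matrix genes gave 7 of 22 higher and 1 lower, and with 1 array left out 4 (without replicate 1 at 8 h) to 6 were higher. Of the 22, 17 were well above background on all 5 arrays. FN1, fibronectin, was near background at 8 h (−7, −6.94 and −7.25) and at least 3.69-fold higher at 24 h, SPARC at least 2.53-fold, and TNC, well above background on 1 of the 8 h arrays, rose by 2.07 ± 0.37. FN1, SPARC and TNC passed the filter through the 24 h arrays alone, so that their direction was fixed by their choice. COL22A1, a collagen of tissue junctions, rose by 1.44 ± 0.31 and was not called without replicate 2 at 24 h (q = 0.0654). LAMA3, a laminin chain, fell by 2.1 on the log2 scale (q = 0.000633).

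The promoters of these secreted and surface proteins are shown because many such genes are textbook targets of AP-1 and NF-kappa-B. The 250 bases before the start site are RefSeq sequence of GRCh38.p14, 5′ to 3′ on the strand of the gene, with matches on either strand to the AP-1 motif TGANTCA in capitals for CCL7 (chr17:34269971-34270220, plus strand), MMP7 (chr11:102530748-102530997, minus strand) and CD14 (chr5:140633176-140633425, minus strand), and the NF-kappa-B match in capitals for CXCL3 (chr4:74038690-74038939, minus strand), where 2 matches overlap.
CCL7: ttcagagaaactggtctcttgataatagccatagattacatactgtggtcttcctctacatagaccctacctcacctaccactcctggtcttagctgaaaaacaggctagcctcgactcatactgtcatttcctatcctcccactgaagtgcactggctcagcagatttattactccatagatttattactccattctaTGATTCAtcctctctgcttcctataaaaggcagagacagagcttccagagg
MMP7: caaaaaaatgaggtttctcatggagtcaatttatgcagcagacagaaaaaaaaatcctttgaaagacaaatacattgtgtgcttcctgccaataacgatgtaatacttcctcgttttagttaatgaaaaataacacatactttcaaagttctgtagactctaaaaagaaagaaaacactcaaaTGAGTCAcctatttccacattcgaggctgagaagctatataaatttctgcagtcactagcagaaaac
CD14: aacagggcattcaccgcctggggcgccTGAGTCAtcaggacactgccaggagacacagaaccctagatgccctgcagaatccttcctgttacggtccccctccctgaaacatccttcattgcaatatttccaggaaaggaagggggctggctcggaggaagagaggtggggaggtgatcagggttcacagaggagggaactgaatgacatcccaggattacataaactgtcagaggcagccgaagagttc
CXCL3: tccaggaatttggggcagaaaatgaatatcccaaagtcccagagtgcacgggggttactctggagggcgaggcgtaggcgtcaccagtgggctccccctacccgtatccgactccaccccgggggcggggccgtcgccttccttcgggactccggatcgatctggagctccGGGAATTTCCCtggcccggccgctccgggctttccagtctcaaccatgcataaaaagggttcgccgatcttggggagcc
The AP-1 motif was in 5 of 9 promoters of the proteases and inhibitors called higher that had an entry, in 1 of 12 of the chemokines called higher, which is CCL7, in 6.16% of 471 promoters of all genes called higher, in 5.0% of 400 of genes called lower and in 4.25% of 9697 of genes tested. The NF-kappa-B motif was in 5 of 12 promoters of chemokines called higher, in 8.28% of genes called higher, in 6.0% of genes called lower and in 6.06% of genes tested. A match describes letters in this window and shows no binding.

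Many DNA replication genes rose in vit C-treated cells. Of 46 on the list 44 were tested, 22 were called higher and 0 lower, and 44 of 44 had a positive log2 fold change, with a median of 1.04. Origin licensing and helicase genes gave 11 of 17, and polymerases and fork factors 10 of 22. DTL, which marks the licensing factor CDT1 for destruction, read −1.11, −0.9 and −1.11 and then 0.64 and 1.33, 2.02 ± 0.2 on the log2 scale (q = 1.77e-05). GINS2, of the replicative helicase, read 0.21, −0.03 and 0.1 and then 1.73 and 1.81, 1.68 ± 0.16 (q = 1.89e-05). MCM10, which helps to fire origins, rose by 1.74 ± 0.26, and CLSPN, a fork checkpoint protein near background on 2 of the 8 h arrays, by 1.83 ± 0.3. PCNA, the sliding clamp, read 1.56, 1.51 and 1.16 and then 2.02 and 2.69, with 0.94 on the log2 scale (q = 0.0704). The median was 0.91 on replicate 1 and 1.08 on replicate 2 at 24 h, and 18 and 16 genes were called higher without each in turn.

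Regulators of entry into S phase were also among the calls. Of 12 tested G1 cyclins and E2F genes 7 were called higher and 0 lower. E2F2 rose by 1.79 ± 0.19 (q = 3.49e-05) through 1 of 2 tested probes, from −0.43, −0.4 and −0.76 to 1.31 and 1.2, while the other probe was at 0.09. E2F1 rose by 1.48 ± 0.2, from −0.6, −0.88 and −0.42 to 0.94 and 0.77. E2F7, a repressor of the same family, rose by 1.72 ± 0.26 and the cyclin CCNE1 by 1.36 ± 0.17. Of 6 CDK inhibitors 1 rose and 1 fell, and the one that fell was CDKN1C, by 1.22 on the log2 scale. Homologous recombination and Fanconi genes gave 10 of 22 higher and 0 lower, with a median of 1.03. RAD54L rose by 1.65 ± 0.19, BRCA1 by 1.54 ± 0.21, FANCA by 1.33 ± 0.19 and EXO1 by 1.27 ± 0.27. Without replicate 2 at 24 h 6 of them were called and EXO1 was not (q = 0.0653), nor was CDKN1C (q = 0.0514), and without replicate 1 at 8 h E2F2 could not be tested because its probes went opposite ways.

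Few mitosis genes were called. Of 49 tested 1 was higher and 1 lower, against 8.01% of all genes tested in either direction, and the median was 0.23. With 1 array left out 0 to 3 were higher (3 without replicate 1 at 24 h) and 0 or 1 lower. SPC25, of the kinetochore, rose by 1.01 ± 0.22 and the kinase NEK2 was at least 1.91-fold lower, and neither call held in all fits that left out 1 array. NEK2 was called by 1 of 2 tested probes, with the other at −0.5. CCNB1, the mitotic cyclin, read 1.37, 1.41 and 1.52 at 8 h and 1.33 and 1.77 at 24 h, with overlap between the time points (0.12 on the log2 scale, q = 0.775). The median of the list was 0.07 on replicate 1 and 0.43 on replicate 2 at 24 h. Histone genes gave 7 of 60 higher (11.7%, beside 4.36% of all genes) and 0 lower, led by H2AC18 at 1.34 ± 0.17, but probes of this family can share transcripts with near-identical copies.

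E2F proteins bind the promoters of replication genes, and 3 of these are shown with matches to TTTGGCGC or TTTCCCGC, on either strand, in capitals. They are DTL (chr1:212035498-212035747, plus strand), GINS2 (chr16:85688955-85689204, minus strand) and E2F1 (chr20:33686386-33686635, minus strand), again RefSeq sequence of GRCh38.p14 before the start site.
DTL: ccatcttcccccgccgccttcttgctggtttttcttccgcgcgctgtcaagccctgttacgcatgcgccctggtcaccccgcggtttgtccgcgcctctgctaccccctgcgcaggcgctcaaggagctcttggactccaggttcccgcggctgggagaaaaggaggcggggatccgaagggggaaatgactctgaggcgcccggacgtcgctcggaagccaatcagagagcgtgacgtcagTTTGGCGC
GINS2: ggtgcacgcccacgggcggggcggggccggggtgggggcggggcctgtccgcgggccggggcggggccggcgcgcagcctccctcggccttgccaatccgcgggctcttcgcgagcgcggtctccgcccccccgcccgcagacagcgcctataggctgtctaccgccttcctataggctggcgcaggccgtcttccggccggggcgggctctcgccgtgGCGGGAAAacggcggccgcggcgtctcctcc
E2F1: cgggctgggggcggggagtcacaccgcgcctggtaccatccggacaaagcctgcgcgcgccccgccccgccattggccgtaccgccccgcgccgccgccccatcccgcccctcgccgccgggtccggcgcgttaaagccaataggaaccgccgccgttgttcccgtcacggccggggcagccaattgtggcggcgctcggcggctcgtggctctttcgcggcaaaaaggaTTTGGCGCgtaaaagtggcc
Either E2F motif was in 9 of 21 promoters of replication genes called higher in 3 of 6 of G1 genes called higher and in 1 of 9 of recombination and Fanconi genes called higher, against 3.82% of all genes called higher, 2.0% of genes called lower and 2.95% of genes tested. CCAAT, the letters that NF-Y binds, was in 13 of these 21 promoters and in 35.2% of genes tested.

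**Figure D3:**
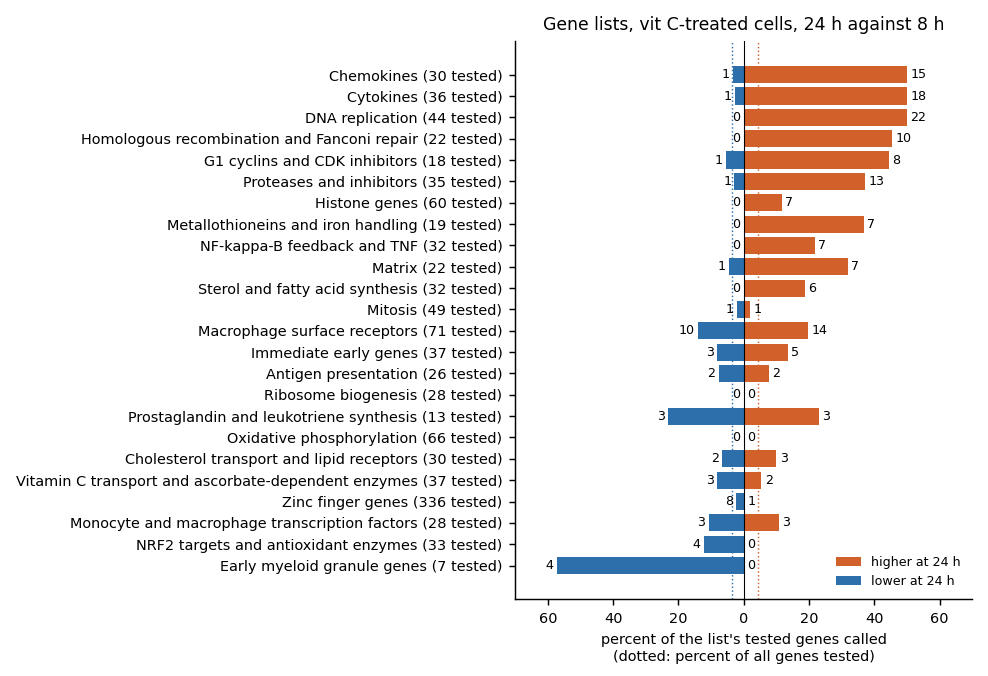
Percent of the tested genes of each list that were called higher (orange, right) or lower (blue, left) at 24 h in vit C-treated cells, with counts at the bar ends, ordered by median log2 fold change; dotted lines give 4.36% and 3.65%, the shares of all genes tested. Chemokines, cytokines and DNA replication reach the highest shares called higher, and early myeloid granule genes the highest share called lower.

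Among the falls, granule proteins of early myeloid cells stood out by level. CTSG, cathepsin G, read 5, 4.86 and 4.95 at 8 h and 1.78 and 2.1 at 24 h, and fell by 3 ± 0.59 on the log2 scale (q = 0.00436). ELANE, neutrophil elastase, read 2.11, 1.84 and 2.19 and then −0.24 and −0.5, and fell by 2.42 ± 0.41 (q = 0.00155). PRTN3 and AZU1, which lie beside ELANE in the genome, fell by 1.99 ± 0.31 and 1.91 ± 0.3. These 4 were all the called genes of 7 tested on a list of 12, of which 5, MPO among them, were near background. The median of the list was −1.88 on replicate 1 and −1.94 on replicate 2 at 24 h, and the 4 calls stood without each of these arrays.

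The other large falls were more mixed. AKR1C1 and AKR1C3, reductases of steroids and targets of NRF2, read −0.08, 0.18 and −0.1 and −0.53, −0.51 and −0.61 at 8 h, and fell by 2.76 ± 0.38 and 2.94 ± 0.46 on the log2 scale. Their transcripts are near-identical and may share signal. With replicate 1 at 24 h left out, AKR1C1 could not be tested because its probes went opposite ways. DHRS9, which oxidizes retinol, read 1.19, 1.08 and 1.24 and then −1.73 and −1.26, and fell by 2.67 ± 0.32 (q = 0.000102). DMRT2, a transcription factor of embryonic development, fell by 3.12 ± 0.29 (q = 1.42e-05), from 2.29, 2.72 and 2.09 to −0.92 and −0.58. The oxygen-binding protein MB fell by 2.92 ± 0.4, the muscarinic receptor CHRM3 by 2.76 ± 0.34, the orphan receptor GPR160 by 2.63 ± 0.31 and the adenylate kinase AK5 by 2.58 ± 0.46. Among genes measured on all 5 arrays CFAP74, JAKMIP3 and TMCC2 had the largest estimates, −3.59 ± 0.72, −3.47 ± 0.7 and −3.18 ± 0.56. Their SDs within a time point were up to 1.13, 1.04 and 0.69. JAKMIP3 was not called without replicate 1 at 24 h (q = 0.0689).

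Receptors of monocytes were among the genes near background on both 24 h arrays. The 6 given here passed the filter through the 8 h arrays alone, so that the order of the time points was fixed by their choice. FCER2, the low-affinity IgE receptor, read −2.18, −2.52 and −1.97 at 8 h and −4.99 and −5.74 at 24 h, at least 7.57-fold lower (q = 0.00217). CD180, a Toll-like receptor relative, read −2.73, −2.71 and −2.68 and then −5.18 and −5.43, at least 5.41-fold lower (q = 1.73e-05). CCR2, the receptor for CCL2 and CCL7, read −3.11, −2.75 and −3.45 and then −6.44 and −6.63, at least 4.12-fold lower (q = 0.0061). LPAR5, a receptor of lysophosphatidic acid, was at least 3.9-fold lower, the phosphatase PTPRF at least 3.36-fold and the chemokine receptor CXCR2 at least 3.1-fold. CCR2 was not called without replicate 2 at 24 h (q = 0.0604), PTPRF without replicate 1 at 8 h or either 24 h array, and CXCR2 lost its call whichever of the 5 arrays was left out.

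Over the whole list of macrophage surface receptors 14 of 71 tested rose and 10 fell, and the median log2 fold change was 0.18. Without replicate 1 and 2 at 24 h in turn 14 and 11 rose and 9 and 9 fell. CD14, the co-receptor for lipopolysaccharide, read 0.69, 0.39 and 0.72 at 8 h and 4.18 and 3.31 at 24 h, 3.14 ± 0.26 on the log2 scale (q = 5.11e-06). The scavenger receptor MARCO rose by 2.84 ± 0.24, from −2.08, −2.15 and −2.12 to 1.06 and 0.38, and the lectin CLEC4E was at least 5.9-fold higher. The integrin ITGA1 rose by 2.39 ± 0.33. The lectin CD209, which binds high-mannose sugars, fell by 2.16 ± 0.26, from 1.88, 1.69 and 2.11 to −0.25 and −0.29, the fractalkine receptor CX3CR1 by 1.98 ± 0.28 and CSF2RA, of the GM-CSF receptor, by 1.96 ± 0.42. By class, Fc, complement and chemokine receptors gave 4 higher and 6 lower of 19, and co-stimulators and integrins 5 higher and 0 lower of 25. CSF2RA was not called without replicate 2 at 24 h (q = 0.141).

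Myeloid transcription factors gave 3 higher and 3 lower of 28, beside 4.36% and 3.65% of all genes. BHLHE41, a repressor expressed in tissue macrophages, rose by 2.55 ± 0.26, CEBPB, a driver of macrophage genes, by 1.04 ± 0.21 and RUNX3 by 1.03 ± 0.19. IRF8, which shapes monocytes and dendritic cells, fell by 1.67 ± 0.34 (q = 0.00577), ETV5 by 1.31 ± 0.35 and MAF by 1.09 ± 0.23. CEBPB, ETV5 and MAF were each called by 1 of 2 tested probes, the others being at 0.42, −0.78 and −0.59. Of these 6, only BHLHE41 and IRF8 were called in each fit that left out 1 array. Antigen presentation genes gave 2 higher and 2 lower of 26, beside the same shares. CD1A and CD1C, which present lipids, rose by 1.8 ± 0.21 and 1.44 ± 0.23, while CD1D, which presents lipids to NKT cells, fell by 1.48 ± 0.26 and HLA-DMB, which loads peptides on MHC class II, by 1.33 ± 0.22. CD1D was called by 1 of 2 tested probes, with the other at −0.65.

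Prostaglandin and leukotriene enzymes moved in opposite directions, 3 higher and 3 lower of 13 (46.2% called, beside 8.01% of all genes). PTGS2 rose while PTGS1, the constitutive cyclooxygenase, fell by 1.18 ± 0.25 through 1 of 2 tested probes, with the other at −0.89. PTGDS, the prostaglandin D synthase, rose by 1.34 ± 0.19. ALOX5, which starts leukotriene synthesis, rose by 1.11 ± 0.18 from 1.62, 1.91 and 1.83 to 2.93 and 2.86, and its partner ALOX5AP fell by 1.72 ± 0.21 from 3.4, 3.29 and 3.57 to 1.6 and 1.79. LTC4S, the leukotriene C4 synthase, fell by 1.34 ± 0.28. PTGS1 was not called without replicate 1 at 24 h (q = 0.0581) and LTC4S without replicate 2 at 24 h (q = 0.0982).

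Lipid genes rose in part. Sterol and fatty acid synthesis gave 6 of 32 higher (18.8%, beside 4.36% of all genes) and 0 lower, with a median of 0.24. FADS1, a fatty acid desaturase, read 0.85, 0.86 and 0.81 and then 2.51 and 2.7, 1.76 ± 0.16 on the log2 scale (q = 1.3e-05), SCD, another desaturase, rose by 1.59 ± 0.17 and DHCR7, the last step of cholesterol synthesis, by 1.45 ± 0.18. Cholesterol transport and lipid receptors gave 3 higher and 2 lower of 30 (16.7% called, beside 8.01% of all genes). The exporter ABCA1 rose by 2.22 ± 0.26, NR1H3, the sterol-sensing receptor LXR-alpha that induces it, by 2.01 ± 0.19, and APOE by 1.53 ± 0.37. OSBPL5, a sterol-binding protein, fell by 1.49 ± 0.23 and PLIN2, the coat of lipid droplets, by 1.06 ± 0.2. APOE was not called without replicate 2 at 8 h (q = 0.061) or replicate 2 at 24 h (q = 0.171).

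Of 58 listed vit C transporters and ascorbate-dependent enzymes 37 were tested, of which 2 rose and 3 fell (13.5% called, against 8.01% of all genes tested), and their median was −0.05. P3H2, a prolyl hydroxylase of collagen, read 3.08, 3.06 and 2.96 and then 5.69 and 5.63, 2.63 ± 0.19 on the log2 scale (q = 1.85e-06), and PLOD2, a lysyl hydroxylase well above background on 2 of the 3 arrays at 8 h, rose by 1.6 ± 0.34. BBOX1, of carnitine synthesis and well above background on 1 of the 24 h arrays, fell by 2.12 ± 0.44, the histone demethylase KDM2B by 1.38 ± 0.23 and the transporter SLC2A11 by 1.47 ± 0.35. SLC2A1, the main GLUT, read 3.36, 3.3 and 3.33 and then 3.96 and 3.59 (0.45 on the log2 scale, q = 0.369), and none of the 10 tested transporters rose. SLC23A1, an SVCT, was near background, and the probes of SLC23A2, the other, went opposite ways. PLOD2 and SLC2A11 were not called without replicate 2 at 24 h (q = 0.139 and q = 0.216), nor SLC2A11 without replicate 3 at 8 h (q = 0.0522), nor BBOX1 without replicate 1 at 24 h (q = 0.0654).

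Metallothioneins, which bind zinc and copper, gave 5 of 11 higher and 0 lower, and iron handling genes 2 of 8, together 36.8% of those tested. MT2A rose by 1.57 ± 0.2, from 3.92, 3.73 and 3.95 to 5.21 and 5.66, MT1E was at least 1.9-fold higher, and MT1G and the ferric reductase STEAP3 rose by 1.09 ± 0.2 and 1.13 ± 0.18. MT1E, MT1G and STEAP3 were each called by 1 of 2 tested probes, the others being at 0.48, 0.31 and 0.7. Metallothionein transcripts are alike enough for probes to share signal. The list gave 3 genes higher without replicate 2 at 24 h and 9 without replicate 1 at 24 h, and without replicate 2 MT1G was under the minimum at 0.95. NRF2 targets and antioxidant enzymes gave 0 higher and 4 lower of 33 (12.1% called, beside 8.01% of all genes). Beside AKR1C1 and AKR1C3 these were the cystine transporter SLC7A11 (−1.17 ± 0.34) and the peroxidase GPX7 (−1.05 ± 0.18). GPX7 was called by 1 of 2 tested probes, with the other at −0.73. SLC7A11 lost its call whichever of the 5 arrays was left out, and GPX7 was under the minimum without replicate 1 at 24 h (−0.89). HMOX1, heme oxygenase and the best known target, read 8.02, 8.01 and 8.16 and then 7.53 and 6.85 (−0.88 on the log2 scale, q = 0.0358). Of 31 hypoxia and glycolysis genes the hexokinase HK2 (2.14 ± 0.34) and VEGFA (1.62 ± 0.38) were higher and 0 lower (6.45% called, under the 8.01% of all genes), and VEGFA was not called without replicate 1 at 8 h or either 24 h array.

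The remaining lists are given beside the 8.01% of all genes called in either direction. No gene was called of 66 in oxidative phosphorylation, 28 in ribosome biogenesis, 21 in the unfolded protein and amino acid response, 17 in heat shock (a list that does not hold HSPB3) and 9 in housekeeping, and their medians lay between −0.26 and 0.07. Without replicate 1 at 24 h 1 oxidative phosphorylation gene and 2 heat shock genes were lower. Lysosome genes gave 1 higher (LAMP3, 1.43 ± 0.29) and 1 lower (MITF, −1.05 ± 0.31) of 58, interferon-stimulated genes 2 higher of 32 (HERC5, 1.2 ± 0.25, and IFI44L, 1 ± 0.25), and S100 genes 1 of 15 (S100A8, 1.39 ± 0.29). MITF was called by 1 of 3 tested probes, with another at −0.04. Complement genes gave 2 of 10 (20%), the inhibitor CD59 at 2.32 ± 0.19 with all 4 tested probes called and C1QB, well above background on 1 of the 8 h arrays, at 2 ± 0.42. Zinc finger genes gave 1 higher and 8 lower of 336 (2.68%), with 4 lower without replicate 1 at 8 h and 0 to 4 higher with 1 array left out, and were led by ZNF367 (at least 3.02-fold higher) and ZNF366 (−2.39 ± 0.21). ZNF366, a repressor in dendritic cells, read −0.02, 0.12 and 0.05 and then −2.26 and −2.43. Without replicate 2 at 24 h LAMP3 (q = 0.0791), HERC5 (q = 0.124), S100A8 (q = 0.0896) and ZNF367 (q = 0.0819) were not called, nor was C1QB without replicate 1 at 24 h (q = 0.0519). The lysosome list gave 2 higher and 3 lower without replicate 1 at 24 h. MITF lost its call without any 8 h array or replicate 2 at 24 h and could not be tested without replicate 1 at 24 h, where its probes went opposite ways, and IFI44L was called in 2 of 5 such fits.

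UT cells were compared over the same interval on their own 5 arrays, all on the other slide, in the same fit. There 328 of 18537 genes (1.77%) were higher at 24 h and 380 (2.05%) lower. Of the genes called higher in vit C-treated cells 241 were also called higher in UT cells, which is 29.8% of the first list and 73.5% of the second. For the lower genes the overlap was 236, or 34.9% and 62.1%, and 0 genes were called in opposite directions. Across 33010 probes the changes correlated with r = 0.522 (Pearson, a description across probes, which are not independent). The median of the 808 genes was 1.44 in vit C-treated and 0.78 in UT cells, and that of the 677 genes −1.43 and −0.87, where the first value of each pair comes from the comparison that chose the genes.

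The same lists were read in UT cells. Chemokines gave 15 higher in UT cells too, with a median of 1.14, and the 4 granule genes were lower there as well, CTSG by 3.13 and ELANE by 2.18. Cytokines gave 13 higher, with a median of 0.52. No DNA replication gene was called in UT cells, and the median was 0.36, against 1.04 in vit C-treated cells. The direct test of the difference, vit C minus UT, was positive in 39 of 41 replication genes with a median of 0.72, and in 22 of 22 recombination genes with a median of 0.68, against 10059 of 18515 genes and 0.06 over all. A list gene was valued, in UT cells too, by the probe chosen on its vit C change, which can favour vit C. The values over all genes took the probe of largest difference, so that the choice of probe is not the same. The difference was also positive in 39 of 46 mitosis genes with a median of 0.48 and in 14 of 15 S100 genes with a median of 0.63. Other lists leaned the other way, such as lysosome genes (12 of 54 positive, median −0.24) and interferon-stimulated genes (8 of 28, median −0.17). No member of these lists passed the test of the difference, the lowest q being 0.133 for replication and 0.17 for recombination genes. DTL had a difference of 1.38 (q = 0.133). IL11 read 2.74 in vit C-treated and −0.07 in UT cells, a difference of 2.81 (q = 0.0788).

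**Figure D4:**
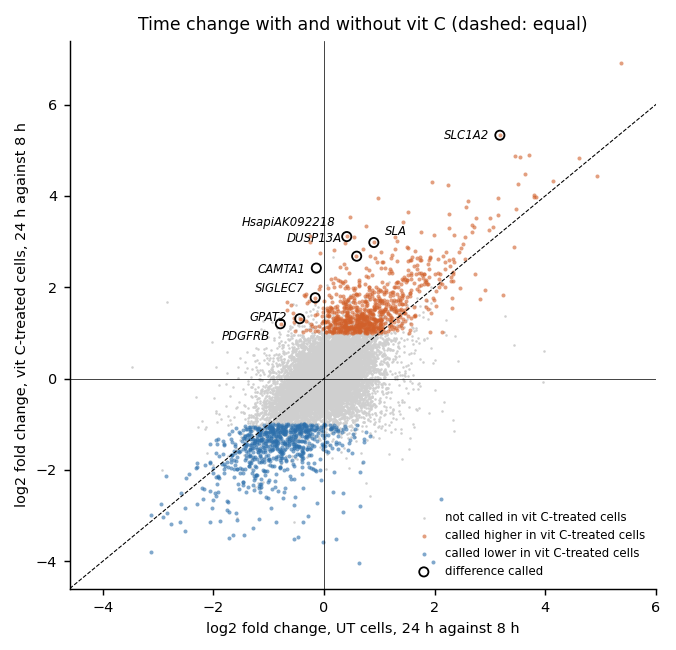
Log2 fold change of 24 h against 8 h in UT cells (x axis) and in vit C-treated cells (y axis), 1 point a gene; colours mark calls in vit C-treated cells and black rings the 8 genes whose difference was called. Most called genes lie on the same side of 0 in UT cells, and all 8 ringed genes lie above the dashed line of equal change.

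The difference between the time changes passed the test for 8 of 18515 genes (0.0432%), all toward a higher log2 fold change in vit C-treated cells. At an unadjusted p of at most 0.05 there were 908, of which 465 were positive. With only probes above background in every group compared, 4 differences were called. Among the vit C arrays CAMTA1, SLC1A2 and SIGLEC7 passed the filter through 24 h alone, so that their rise was fixed by their choice. SLA, an adaptor that dampens receptor signalling, read 1.61, 1.47 and 1.57 at 8 h and 4.44 and 4.64 at 24 h with vit C, and 1.71 and 1.8 and then 2.57, 2.72 and 2.66 in UT cells. Its difference was 2.09 ± 0.24 (q = 0.00667), and the 24 h groups did not overlap while the 8 h groups lay close together. DUSP13A, a phosphatase under the array name DUSP13, read −0.81, −0.89 and −0.72 and then 1.89 and 1.86 with vit C, and −0.88 and −0.6 and then 0.05, −0.28 and −0.24 in UT cells, a difference of 2.09 ± 0.24 (q = 0.00667). PDGFRB, a growth factor receptor of mesenchymal cells, read −1.48, −1.32 and −1.46 and then −0.26 and −0.19 with vit C, and −1.08 and −1.29 and then −1.65, −2.04 and −2.23 in UT cells. PDGFRB rose by 1.2 with vit C and was at −0.79 in UT cells, below the minimum for a call, 1.98 ± 0.29 apart (q = 0.0351).

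SLC1A2 read −7.14 and −7.16 and then −3.9, −3.9 and −4.1 in UT cells. Its fitted log2 fold changes were 5.33 with vit C and 3.18 in UT cells, 2.15 ± 0.32 apart (q = 0.0351), from signals near background at 8 h. SIGLEC7, an inhibitory receptor that binds sialic acid and was well above background on 1 of the 8 h arrays with vit C, read −4.71, −4.7 and −4.37 and then −2.63 and −3.01 with vit C, and −4.99 and −5.07 and then −5.3, −4.88 and −5.4 in UT cells, 1.94 ± 0.3 apart (q = 0.0436). CAMTA1, a calmodulin-binding transcription factor, was near background on every 8 h array with vit C and differed by 2.56 ± 0.38 (q = 0.0351), while its tested probes went opposite ways in the vit C comparison alone. GPAT2, an acyltransferase whose difference is smaller than the 6 that the rule for named genes takes, and HsapiAK092218, a transcript with no symbol, were named after their values were seen, because the count is small, with differences of 1.75 ± 0.27 (q = 0.0436) and 2.7 ± 0.33 (q = 0.00832). With normexp background correction the differences of CAMTA1, SIGLEC7 and SLC1A2 were 0.15, 0.27 and 1.39, and with the mean of a gene's tested probes those of HsapiAK092218 and SLA were 0.94 and 1.31. With only the 10 arrays of these 4 groups in the limma fit 0 genes passed, and SLA and DUSP13A had q = 0.166. Without replicate 1 of vit C at 24 h 97 genes passed, and without replicate 3 of UT at 24 h 3 did.

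**Figure D5:**
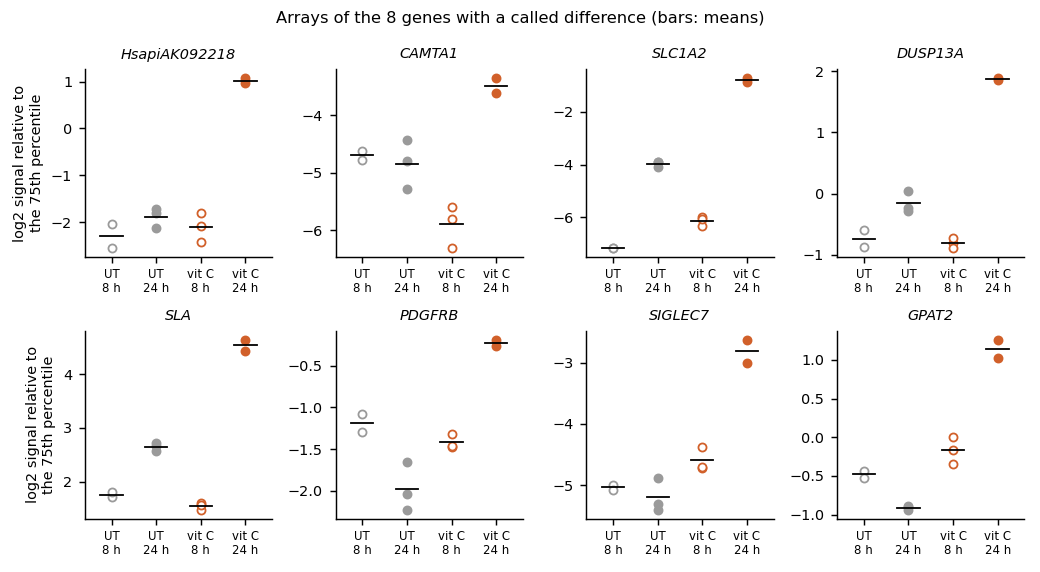
Levels on each of the 10 arrays of UT and vit C-treated cells at 8 h (open) and 24 h (filled) for the 8 genes whose time change differed, on the log2 scale relative to the array's 75th percentile; bars are group means. In each gene the 2 arrays of vit C at 24 h lie above the arrays of the other 3 groups.

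The later vit C arrays were set beside these changes as a description. The mean at 48 h lay on the same side of the 8 h mean for 783 of the 808 higher and 629 of the 677 lower genes, and at least 2-fold from it for 623 and 411. At 96 h the counts were 617 and 487, and 413 and 297. These comparisons share the 8 h arrays that took part in the choice of the genes, and 3 of the 4 later vit C arrays lie on other slides.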

How the data were processed

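RNA of each flask was labelled with Cy3 and hybridised to Agilent one-colour arrays, with flasks of lower RNA integrity set aside by the study. The deposited scanner files hold the processed signal intensity of each spot, background-subtracted per the file headers by Feature Extraction 10.5.1.1 (the study's methods name another release). The authors' deposited value table holds log2 signal shifted to the 75th percentile, and served as an alternative. Control spots were left out (51538 of 52857 spots remained), log2 intensity minus each array's 75th percentile was computed, and spots of a probe were averaged, giving 50238 probes under 31033 gene names, of which 18899 matched a current or older RefSeq symbol and 851 only an accession.

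Probes well above background on every array of 1 time point were tested with limma 3.58.1 (R 4.3.3) as 8 group means over all 19 arrays, with Benjamini-Hochberg q over all probes tested. A gene was called where its log2 fold change reached 1 in either direction and its q was no larger than 0.05, valued by its called probe of largest change, and 2341 genes whose probes went opposite ways were removed. The difference test was vit C minus UT time change, which share no arrays. Named genes were, among those with a symbol, the 12 largest rises and falls measured on all 5 arrays, the 6 largest bounds each way, the 6 largest called differences each way, up to 4 called genes each way in each list, and defining members, a few of which are not reported here. The members and lists were chosen with earlier results of these data known. The scripts were tested on simulated data. Precision is limited by how few arrays there are, and an exact permutation test of 3 against 2 arrays cannot give a p under 0.1. P-values measure the spread between flasks of 1 line. Promoters came from RefSeq (GRCh38.p14). Alternatives covered background correction, normalization, filters, tests, arrays entered, slide and replicate number.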

Additional observations from a re-analysis of the deposited data

Results flagged for a closer look

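The change from 8 h to 24 h differed between vit C-treated and UT cells for 8 genes, each by the limma test of the difference itself, and each with the higher log2 fold change in vit C-treated cells. The differences on the log2 scale were 2.7 for HsapiAK092218, 2.56 for CAMTA1, 2.15 for SLC1A2, 2.09 for DUSP13A, 2.09 for SLA, 1.98 for PDGFRB, 1.94 for SIGLEC7 and 1.75 for GPAT2. Among the vit C arrays CAMTA1, SLC1A2 and SIGLEC7 passed the filter only through the 24 h arrays, where they are high. Their rise with vit C is thus no independent support. DUSP13A was called in 24 of 27 alternatives and SLA in 24 of the 26 in which it could be tested, while CAMTA1 was called in 9 of 25 and SIGLEC7 in 8 of 26. Over the alternatives the difference ran from 0.15 to 2.76 for CAMTA1, from 0.27 to 2.13 for SIGLEC7, from 0.94 to 2.96 for HsapiAK092218, from 1.39 to 3.18 for SLC1A2 and from 1.31 to 2.19 for SLA, and between 1.86 and 2.23 for DUSP13A, 1.4 and 2.14 for PDGFRB and 1.63 and 1.86 for GPAT2. The arrays of UT cells and those of vit C-treated cells lie on different slides, with both time points of each on the same slide.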

How the results depend on the processing

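The counts of 808 higher and 677 lower genes stayed within 1.5 times, except that normexp background correction gave 419 and 280, the methods' t-test 98 and 65 after Benjamini-Hochberg (861 and 761 at its unadjusted p, an alternative chosen after seeing the data) and no minimum fold 1258 and 1055. Leaving out 1 array gave 589 to 873 higher and 498 to 760 lower genes. The number of called differences, 8, was 0 with only the arrays compared, 3 with slide as a fixed term, 4 with only probes above background in every group, 5 with the percentile over detected probes, 15 with quantile normalization, 20 with an intensity trend, 21 with normexp, 73 with a signal floor of 20 and 908 at an unadjusted p. It ran from 3 to 97 when 1 array was left out, with 97 without vit C at 24 h replicate 1, 19 without UT at 8 h replicate 1, 5 without UT at 24 h replicate 2, 4 without vit C at 8 h replicate 2 and 3 without UT at 24 h replicate 3 or vit C at 8 h replicate 1 or 3. The t-test is not defined for the difference and was not run there. Apart from alternatives that by construction use fewer arrays or probes, the cause was not tested.

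Replicate numbers in titles and descriptions differ only at 48 h, and neither the labels nor the methods say that a number marks a shared batch or day. With the replicate block by description number 741 higher and 620 lower genes and 2 differences were called, and by title number 747, 607 and 2. Deviations of same-numbered arrays correlated at −0.12 and 0.43, and those of other pairs at −0.47 to 0.47. The deviations of the 2 arrays at 24 h mirror each other by arithmetic, so that these values cannot tell whether numbers pair arrays.

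Signs turned for 3 genes that were not called. IL1B was at 0 with array weights, 0.03 and 0.01 with the replicate block by description and title number, 0.03 without vit C at 8 h replicate 3, and between −0.3 and 0.27 over the fits without 1 array, FOS between −0.39 and 0.8 (−0.09 without vit C at 8 h replicate 3) and CCNB1 between −0.1 and 0.34, each lowest or highest without a 24 h array. Of the 24 largest rises and falls 0 turned and 1, JAKMIP3, lost its call when an array was left out. Of 147 named genes, normexp lost 41 calls and the t-test 110. Signal near background limits the folds given as bounds.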
